A study of Mus musculus with 24 samples.

Results

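The genes described here are 9 that mark B cells and the plasma cells they give rise to: Ms4a1, Cd79a, Cd79b, Ighm, Ighd, Igkc, Jchain, Mzb1 and Pou2af1. They were chosen by name and are 9 of the 27179 genes in the count table. All 9 passed the filter on low counts and all 9 also have an FPKM value. RNA was measured by sequencing in whole visceral fat of mice aged 27 to 33 weeks, in 6 groups of 4 libraries, 24 in all. Control females and control males carried Cre recombinase at Foxp3, the gene that defines regulatory T cells, and no other stated change. Pparg knockout mice of both sexes carried that Cre and lacked Pparg, a nuclear receptor, in the cells that express Foxp3. Tbet knockout mice of both sexes carried the same Cre and lacked the T-bet gene Tbx21 in those cells. No group lacked the Cre, the labels name no change aimed at B cells, and they do not say whether each library came from its own animal. The p-values therefore measure only the spread between libraries, which may be technical. Replicates 1 and 3 of each group belong to batch 1 by their titles, and replicates 2 and 4 to batch 2.

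B cells carry an antibody on their surface as a receptor. Its heavy and light chains pair, and the complex signals through the chains encoded by Cd79a and Cd79b. Ighm and Ighd are the constant parts of the heavy chains of IgM and IgD, the classes of a B cell that has not switched, and Igkc is the constant part of the kappa light chain. Ms4a1 encodes CD20, a surface protein that B cells lose when they become plasma cells. Plasma cells secrete antibody: Jchain joins the units of polymeric IgM and IgA, and Mzb1 is a chaperone of the endoplasmic reticulum that helps antibody assembly. Pou2af1 encodes a coactivator (OBF-1) that works with octamer-binding transcription factors on immunoglobulin promoters. Visceral fat holds B cells and plasma cells in lymphoid clusters and between fat cells.

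Positions are from RefSeq on GRCm38.p6. The heavy chain constant regions lie next to each other on chromosome 12, Ighd at 113407535 to 113416324 and Ighm at 113418826 to 113422730. Igkc is on chromosome 6, from 70726435 to 70726754. Ms4a1 spans 11249679 to 11266149 on chromosome 19, Cd79a 24897497 to 24901858 on chromosome 7 and Cd79b 106311341 to 106314562 on chromosome 11. Jchain spans 88519809 to 88527897 on chromosome 5 and Pou2af1 51213690 to 51240079 on chromosome 9. Ms4a1 overlaps an antisense gene, 4930526L06Rik, which held 48 counts over all 24 libraries, and whether the counting used strand is not given in the sources used here. Igkc, Mzb1 and Pou2af1 also overlap annotated genes (Gm30211, SPATA24 and Gm47828) that have no row of their own in the count table under those names.

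The RefSeq promoter table held 3 of the 9 genes, and their 250 bases before the start site are shown because Cd79a, Pou2af1 and Jchain stand for the receptor, the coactivator and the secreted antibody. Each is read 5′ to 3′ on the gene's own strand, with matches to the motifs searched in capitals. The Jchain stretch is chr5:88527898-88528147 on the minus strand, that of Cd79a is chr7:24897247-24897496 on the plus strand and that of Pou2af1 is chr9:51213440-51213689 on the plus strand, all on GRCm38.p6.
Jchain: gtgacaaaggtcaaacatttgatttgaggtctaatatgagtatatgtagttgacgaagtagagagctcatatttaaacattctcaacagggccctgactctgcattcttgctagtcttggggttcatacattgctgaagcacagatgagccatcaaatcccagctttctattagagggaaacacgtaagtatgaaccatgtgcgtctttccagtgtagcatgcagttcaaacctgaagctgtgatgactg
Cd79a: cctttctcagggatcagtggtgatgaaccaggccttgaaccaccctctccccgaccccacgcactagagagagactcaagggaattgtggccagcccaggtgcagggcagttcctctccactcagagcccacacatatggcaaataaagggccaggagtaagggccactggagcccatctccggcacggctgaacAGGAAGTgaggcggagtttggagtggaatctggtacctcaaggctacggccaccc
Pou2af1: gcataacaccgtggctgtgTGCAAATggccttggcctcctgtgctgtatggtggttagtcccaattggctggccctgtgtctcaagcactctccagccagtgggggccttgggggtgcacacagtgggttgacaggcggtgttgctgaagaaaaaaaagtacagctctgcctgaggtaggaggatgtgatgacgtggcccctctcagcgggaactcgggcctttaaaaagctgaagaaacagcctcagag
These motifs were searched on both strands: the octamer ATGCAAAT, its last 7 bases TGCAAAT, which overlap it, and the Ets core AGGAAGT. The Pou2af1 stretch held TGCAAAT once, at -231 to -225 from the start, and that of Cd79a held AGGAAGT once, at -55 to -49. The Jchain stretch held none of these letters. Of all 32851 promoter stretches of this length, 1.60% held ATGCAAAT, 3.56% held TGCAAAT and 7.69% held AGGAAGT. A match describes the letters and is no evidence of binding.

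Library totals ran from 8345575 to 31022845 counts. Levels are given as CPM, counts scaled to a common library total after TMM scaling (trimmed mean of M values). In whole tissue, fewer cells of a type and less RNA per cell cannot be told apart. Pparg was at 64.8 to 362 CPM in control females and 129 to 269 CPM in Pparg knockout females. In males it was at 206 to 264 CPM in controls and 225 to 284 CPM in Pparg knockouts. Tbx21 was at 0.441 to 1.27 CPM in control females and 0.659 to 2.64 CPM in Tbet knockout females. In males Tbx21 was at 0.620 to 1.75 CPM in controls and 0.102 to 1.28 CPM in Tbet knockouts. These ranges overlap in both sexes, so neither gene checks the labels in whole fat. The adipocyte gene Adipoq was at 659 CPM in control females replicate 1 against 1528 to 3985 CPM in the other libraries, and the epithelial gene Epcam at 148 CPM against 0.142 to 86.0. That library stands apart, and its source name gives it another number and batch than its title.

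On the length-scaled scale of the authors' FPKM, which allows genes to be compared with each other, Ighm had the highest median over the 24 libraries at 496 FPKM and Igkc followed at 361. Jchain had a median of 19.4 FPKM, Ighd 5.19, Cd79b 4.60, Cd79a 4.34, Mzb1 2.46, Ms4a1 1.84 and Pou2af1 1.36. The genes differed as much in how widely they varied. Igkc ran from 1.89 to 842 CPM over the libraries, 445-fold, and Jchain from 0.993 to 251 CPM, 253-fold. Ighm, from 367 to 3085 CPM, varied 8.41-fold and Ighd, from 2.85 to 23.9 CPM, 8.40-fold. The range was 86.3-fold for Mzb1, 42.3-fold for Pou2af1, 36.1-fold for Ms4a1, 25.8-fold for Cd79b and 23.6-fold for Cd79a. Some of these folds rest on few reads: the lowest count was 4 for Mzb1, 7 for Pou2af1 and 14 for Ms4a1. It was 21 for Jchain, 40 for Igkc and 5795 for Ighm.

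**Figure D1:**
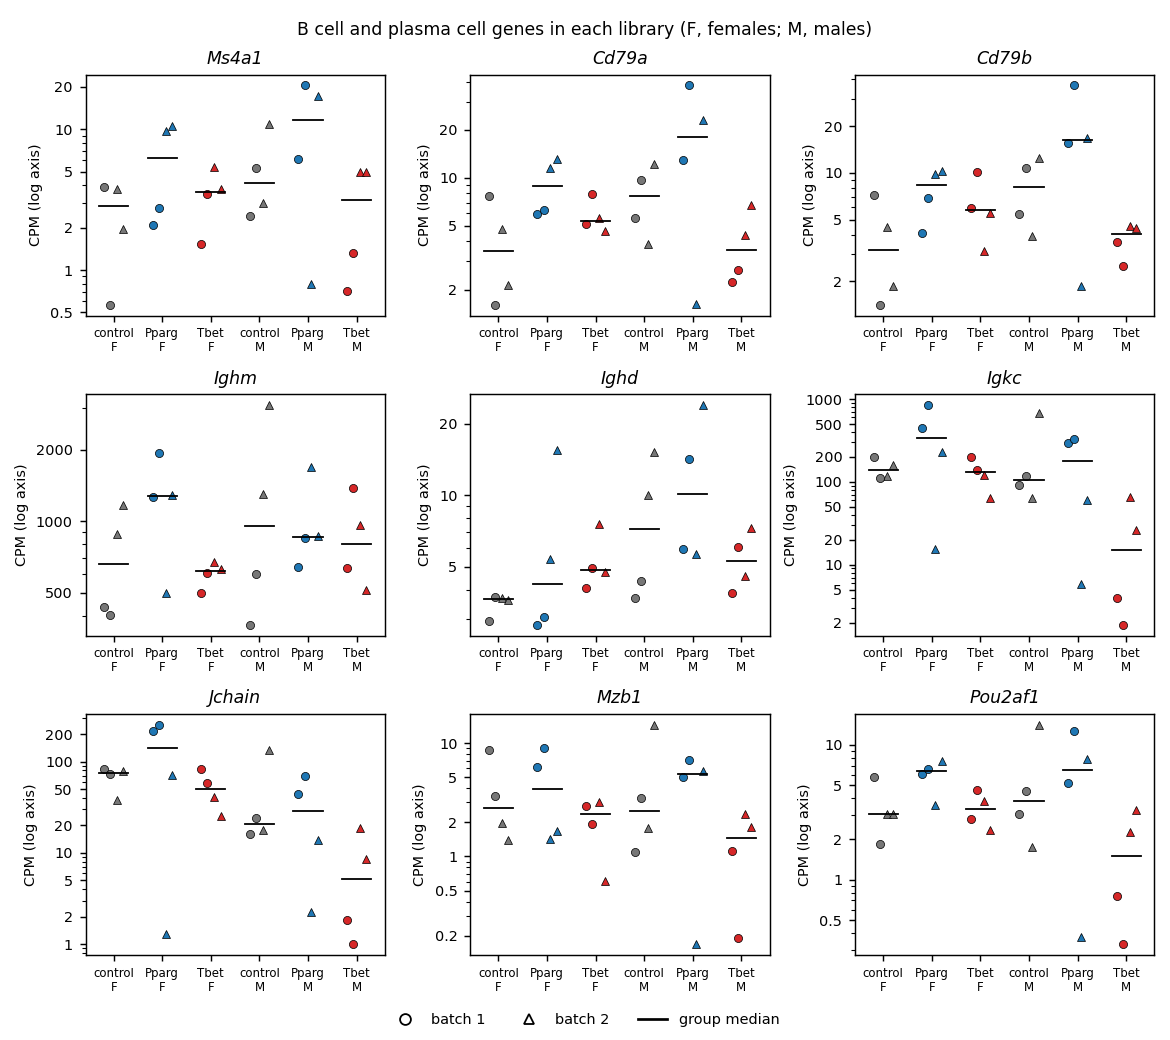
Level of each of the 9 genes (TMM-scaled CPM, log axis) in every library of the 6 groups; points are libraries, marked by batch (F, females; M, males), and bars are group medians. Groups that are neighbours by mean level overlap in every panel but that of Ighd. Igkc and Jchain show the widest spread, down to 1.89 and 0.993 CPM in Tbet knockout males replicate 3.

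Ms4a1 was highest in Pparg knockout males and varied widely within every group. In replicates 1 to 4 it stood at 3.89, 3.77, 0.566 and 1.96 CPM in control females, at 2.08, 9.77, 2.77 and 10.5 CPM in Pparg knockout females and at 1.53, 5.37, 3.44 and 3.74 CPM in Tbet knockout females. Males had 2.41, 2.97, 5.33 and 10.9 CPM of Ms4a1 in controls, 6.13, 0.795, 20.4 and 17.2 CPM in Pparg knockouts and 0.711, 4.94, 1.32 and 4.96 CPM in Tbet knockouts. The highest library and one of the lowest came from the same group, Pparg knockout males replicates 3 and 2.

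Cd79a, one of the chains that carry the receptor's signal, followed Ms4a1 closely. Its levels were 7.72, 4.80, 1.60 and 2.14 CPM in control females, 5.90, 11.5, 6.31 and 13.0 CPM in Pparg knockout females and 5.16, 5.60, 7.94 and 4.65 CPM in Tbet knockout females. Levels of Cd79a in males were 5.59, 3.84, 9.72 and 12.1 CPM in controls, 13.0, 1.63, 37.8 and 23 CPM in Pparg knockouts and 2.23, 4.41, 2.65 and 6.77 CPM in Tbet knockouts. Its partner Cd79b had 7.19, 4.48, 1.42 and 1.88 CPM in control females, 4.10, 9.88, 6.93 and 10.3 CPM in Pparg knockout females and 5.91, 3.15, 10.2 and 5.56 CPM in Tbet knockout females. For both genes Pparg knockout males held the highest library, replicate 3, and replicate 2 of the same group was among the lowest. Cd79b reached 5.44, 3.90, 10.7 and 12.5 CPM in control males, 15.6, 1.88, 36.5 and 16.8 CPM in Pparg knockout males and 3.60, 4.55, 2.51 and 4.44 CPM in Tbet knockout males.

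Ighm was abundant in every library. It was at 434, 881, 401 and 1168 CPM in control females, at 1268, 500.1, 1934 and 1287 CPM in Pparg knockout females and at 498, 676, 603 and 632 CPM in Tbet knockout females. Males had 367, 1307, 599 and 3085 CPM of it in controls, 641, 1688, 850.2 and 867 CPM in Pparg knockouts and 638, 968, 1388 and 513 CPM in Tbet knockouts. Control males held both the lowest and the highest library, replicates 1 and 4. Ighd, the class of resting mature B cells, was at 2.96, 3.69, 3.71 and 3.61 CPM in control females, 2.85, 5.37, 3.06 and 15.5 CPM in Pparg knockout females and 4.05, 7.59, 4.90 and 4.75 CPM in Tbet knockout females. Ighd in males was at 3.69, 10.04, 4.35 and 15.2 CPM in controls, 5.94, 5.65, 14.3 and 23.9 CPM in Pparg knockouts and 3.86, 4.55, 6.05 and 7.29 CPM in Tbet knockouts. All 4 control female libraries lay below all 4 Tbet knockout female libraries for Ighd.

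Igkc varied least, in fold terms, in control females and Tbet knockout females. It was at 200.5, 116, 111 and 160.3 CPM in control females, 454, 15.6, 842 and 227 CPM in Pparg knockout females and 202, 121, 141 and 64.8 CPM in Tbet knockout females. Control males had 93.0, 64.3, 118 and 674 CPM of Igkc, Pparg knockout males 293, 5.86, 332 and 61.0 CPM and Tbet knockout males 3.91, 66.2, 1.89 and 26.5 CPM. The libraries with the least Igkc were Tbet knockout males replicates 3 and 1, Pparg knockout males replicate 2 and Pparg knockout females replicate 2.

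Jchain and Mzb1 are the plasma cell genes, and Pou2af1 the coactivator. Jchain was at 82.0, 38.1, 72.8 and 78.4 CPM in control females, 214, 1.28, 251 and 71.1 CPM in Pparg knockout females and 82.0, 40.8, 58.7 and 25.4 CPM in Tbet knockout females. Jchain in males was at 16, 17.6, 24.1 and 133 CPM in controls, 43.8, 2.26, 70.3 and 13.7 CPM in Pparg knockouts and 1.83, 18.9, 0.993 and 8.49 CPM in Tbet knockouts. Every Tbet knockout male library lay below every Tbet knockout female library for Jchain. Mzb1 was at 8.76, 1.98, 3.40 and 1.39 CPM in control females, 6.18, 1.43, 9.13 and 1.68 CPM in Pparg knockout females and 2.77, 3.03, 1.94 and 0.606 CPM in Tbet knockout females. Its levels in males were 1.09, 1.80, 3.27 and 14.5 CPM in controls, 5.07, 0.167, 7.09 and 5.64 CPM in Pparg knockouts and 1.12, 2.38, 0.189 and 1.80 CPM in Tbet knockouts. Pou2af1 was at 5.80, 3.09, 1.83 and 3.05 CPM in control females, 6.04, 3.57, 6.65 and 7.57 CPM in Pparg knockout females and 2.81, 3.85, 4.65 and 2.32 CPM in Tbet knockout females. It was at 3.08, 1.74, 4.53 and 14.0 CPM in control males, 5.22, 0.377, 12.6 and 7.83 CPM in Pparg knockout males and 0.762, 2.24, 0.331 and 3.31 CPM in Tbet knockout males. Control males replicate 4 held the maximum of both Mzb1 and Pou2af1.

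By mean level, Tbet knockout males came lowest of the 6 groups for Cd79a (4.01 ± 2.06 CPM, SD, n = 4), Igkc (24.6 ± 29.9), Jchain (7.56 ± 8.28), Mzb1 (1.37 ± 0.943) and Pou2af1 (1.66 ± 1.37). Control females came lowest for Ms4a1 (2.54 ± 1.59), Cd79b (3.74 ± 2.67) and Ighd (3.49 ± 0.358), and Tbet knockout females for Ighm (602 ± 75.8). Pparg knockout males came highest for Ms4a1 (11.1 ± 9.23), Cd79a (18.9 ± 15.4), Cd79b (17.7 ± 14.3), Ighd (12.4 ± 8.62) and Pou2af1 (6.51 ± 5.11). Pparg knockout females came highest for Igkc (385 ± 354) and Jchain (134 ± 118), and control males for Ighm (1339 ± 1230) and Mzb1 (5.15 ± 6.27). Of the 45 pairs of neighbouring groups in these orders, 44 had ranges that overlapped. The exception was Ighd between control females and Tbet knockout females. Neighbours by mean are the groups most prone to overlap, and groups farther apart were not counted. Among those, Jchain in Tbet knockout males (0.993 to 18.9 CPM) lay below control females (38.1 to 82.0). Igkc in Tbet knockout males (1.89 to 66.2 CPM) also lay below control females (111 to 200.5). These groups differ in both sex and genotype and were not compared by a test. The share of all genes without overlap was not counted for them. Between the sexes alone it was 15.7% in controls and 12.4% in Tbet knockouts.

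The comparison of all groups asked whether a gene differed anywhere among the 6, with batch as a term. With edgeR's quasi-likelihood test and Benjamini-Hochberg adjustment over 17824 genes, 0 of the 9 genes passed an adjusted p of 0.05, while 25.6% of all genes tested did. At an unadjusted p under 0.05 there were 4 of 9, against 39.2% of all genes. Those nearest the threshold were Cd79a (adjusted p = 0.0558), Ighd (0.0606), Cd79b (0.0626) and Ms4a1 (0.109). DESeq2 called these 4 genes over the 6 groups, with adjusted p from 0.00715 to 0.0294. Without Pparg knockout males replicate 2, the library of that group with low levels of most of these genes, edgeR called the same 4, with adjusted p of 0.00428 for Cd79a, 0.00777 for Cd79b, 0.0113 for Ms4a1 and 0.0166 for Ighd. Without control females replicate 1 it called Cd79a (0.0274) and Cd79b (0.0375), without Pparg knockout females replicate 4 Ighd (0.0148) and without Tbet knockout males replicate 4 Cd79a (0.0469). Within batch 1 it called Ighm, Igkc, Jchain and Pou2af1 instead, with adjusted p of 0.0259, 0.00123, 0.000365 and 0.0396.

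In each of the 9 comparisons that follow, DESeq2 and limma on log2 FPKM also called 0 of the 9 genes. The first comparison asked what loss of Pparg in regulatory T cells did to the B cell genes of fat. In females 0 of the 9 genes were called, against 0.0168% of all genes, and 0 had an unadjusted p under 0.05, against 11.9%. All 9 log2 fold changes were positive, with a median of 0.98 beside -0.02 over all genes. Igkc had a log2 fold change of 1.28 (SE 1.14), Cd79a 1.17 (SE 0.65), Cd79b 1.12 (SE 0.64), Ms4a1 1.07 (SE 0.77) and Ighm 0.98 (SE 0.52), and the smallest adjusted p of the 9 was 0.476. The 2 batches did not give the same picture: Igkc was -0.18 and Ighm -0.19 in batch 2 alone, where Pparg knockout females replicate 2 had the low Igkc and Jchain described above. Without Pparg knockout females replicate 3 Igkc was 0.64, Ighm 0.58, Jchain 0.42 and Mzb1 -0.29, without replicate 4 Ighd was 0.14, and without control females replicate 1 Ms4a1 was 1.75.

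In males the Pparg comparison also called 0 of the 9 genes, against 0% of all genes, with 0 at an unadjusted p under 0.05, against 2.55%. The signs were mixed. Cd79a had a log2 fold change of 1.28 (SE 0.65), Ms4a1 1.26 (SE 0.76), Cd79b 1.07 (SE 0.63) and Ighd 0.72 (SE 0.45), while Jchain had -0.87 (SE 1.16), Igkc -0.69 (SE 1.23), Mzb1 -0.38 (SE 0.98) and Ighm -0.30 (SE 0.51), and Pou2af1 had 0.22. Each of the 9 adjusted p-values was 1, and the smallest unadjusted p in edgeR was that of Cd79a (0.0630). Within batch 1 the 4 negative values were positive (Jchain 1.52, Mzb1 1.496, Igkc 1.58, Ighm 0.64). Without Pparg knockout males replicate 3, the library with the most of Cd79a, Cd79b and Ms4a1, Cd79a was 0.64, Cd79b 0.49, Ms4a1 0.43, Ighd 0.42 and Pou2af1 -0.37.

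In females, loss of Tbx21 in regulatory T cells left the 9 genes between -0.81 (Mzb1, SE 0.97) and 0.73 (Cd79b, SE 0.63) on the log2 scale, with a median of -0.00 beside -0.04 over all genes. None of the 9 was called, against 1.22% of all genes, and 0 had an unadjusted p under 0.05, against 17.3%. Of the 9 genes 1, Ighd, did not overlap between the groups, as was so for 4.97% of all genes. Its log2 fold change was 0.57 (SE 0.45, edgeR adjusted p = 0.559). Without control females replicate 1, the library that stands apart, Cd79b was 1.27, Cd79a 1.15 (0.54 with it), Ms4a1 1.13 (0.40 with it) and Mzb1 -0.12.

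In males the same comparison gave the largest differences of knockout from control for Igkc, Jchain, Mzb1 and Pou2af1. The other genes of the 9 differed more in a Pparg comparison. In Tbet knockout males all 9 log2 fold changes were negative, with a median of -1.09 beside -0.01 over all genes. None was called after adjustment, against 0.00561% of all genes, and all 9 adjusted p-values were 1. At an unadjusted p under 0.05 there were 3 of 9, against 4.38% of all genes: Igkc with a log2 fold change of -3.22 (SE 1.20), Pou2af1 with -1.85 (SE 0.79) and Jchain with -2.61 (SE 1.13). Mzb1 had -1.92 (SE 0.98), Cd79b -1.09 (SE 0.63), Ms4a1 -1.05 (SE 0.76), Cd79a -0.98 (SE 0.65), Ighd -0.44 (SE 0.46) and Ighm -0.39 (SE 0.53).

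The batches differed in size for this comparison. In batch 1 alone Igkc had a log2 fold change of -5.17 and Jchain of -3.82, each with an edgeR adjusted p of 0.0130. In batch 2 alone they had -2.97 (adjusted p = 0.841) and -2.43 (0.871). Pou2af1 had -2.77 in batch 1 and -1.51 in batch 2, and Mzb1 -1.71 and -1.94. When each library was left out in turn Igkc ran from -4.51 to -1.34 and Jchain from -3.86 to -0.86. The comparison leans on control males replicate 4, the library with 674 CPM of Igkc and 133 CPM of Jchain: without it Igkc was -1.34, Jchain -0.86, Pou2af1 -0.84 and Mzb1 -0.23. The same library turned signs in the Pparg comparison of males, where without it Igkc was 0.77, Jchain 0.58, Mzb1 1.16 and Ighm 0.40.

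The difference between the Tbet effect in males and in females was tested itself. It was negative for all 9 genes, with a median of -1.52 beside 0.03 over all genes, and 0 were called, against 0.00561% of all genes. No gene had an unadjusted p under 0.05, against 11.5%. The smallest p was that of Cd79b, with a difference of -1.82 (SE 0.90, edgeR adjusted p = 0.445), and Igkc had the largest difference, -3.03 (SE 1.60, adjusted p = 0.476). In batch 1 alone Igkc (-5.33, adjusted p = 0.0126) and Jchain (-3.69, 0.0160) were called. For the Pparg effect 7 of the 9 differences between the sexes were negative, and again 0 were called, against 0% of all genes, or 0 at an unadjusted p under 0.05, against 6.14%.

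Males were compared with females in each genotype. Between control males and females 0 of the 9 genes were called, although 27.2% of all genes were, and 1 had an unadjusted p under 0.05, against 39.5%. That gene was Ighd, higher in males by 1.06 on the log2 scale (SE 0.46, edgeR adjusted p = 0.0930). Ms4a1 had a log2 fold change of 1.03 (SE 0.76), Igkc 0.79 (SE 1.12) and Jchain -0.34 (SE 1.07). Without control males replicate 4 Igkc turned to -0.89 and Jchain was -1.95, and without control females replicate 1 Ms4a1 was 1.75. Jchain was -1.98 in batch 1 alone, with an adjusted p of 0.00268.

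Between Pparg knockout males and females 0 of the 9 were called, against 8.77% of all genes, and 1 had an unadjusted p under 0.05, against 26.5%. This was again Ighd, at 1.04 (SE 0.46, edgeR adjusted p = 0.151). Without Pparg knockout females replicate 4, the library with 15.5 CPM, Ighd was 1.65 with an adjusted p of 0.0254. Ighd was 1.74 in batch 1 alone (adjusted p = 0.0336) and 0.50 in batch 2 alone. Jchain had a log2 fold change of -2.04 (SE 1.08), and -2.06 with an adjusted p of 0.00614 in batch 1 alone. Ms4a1 had 1.22 (SE 0.77) and Igkc -1.17 (SE 1.11). Ms4a1 was 0.43 without Pparg knockout males replicate 3 and Igkc -0.47 without Pparg knockout females replicate 3.

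Between Tbet knockout males and females 0 of the 9 were called, against 9.31% of all genes, and 1 had an unadjusted p under 0.05, against 25.9%. Jchain differed by -2.51 (SE 1.18, edgeR adjusted p = 0.185). It was the 1 gene of the 9 whose groups did not overlap, which held for 12.4% of all genes. In batch 1 alone Jchain differed by -5.68 (adjusted p = 0.000533) and Igkc by -5.92 (0.00209), and in batch 2 alone Jchain differed by -1.24 (0.653). Over both batches Igkc had -2.23 (SE 1.21; -3.47 without Tbet knockout males replicate 2), Ms4a1 -0.43 (SE 0.76) and Ighd 0.05 (SE 0.45).

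Of the 9 genes 1 differed between the batches at an adjusted p under 0.05, where 51.7% of all genes did. Ighd was higher in batch 2 by 0.80 on the log2 scale (SE 0.27, edgeR adjusted p = 0.0163), and Ms4a1 by 0.97 (adjusted p = 0.0852). The ratio of Ms4a1 to Cd79b counts had a median of 0.422 in batch 1, with a range of 0.197 to 0.559, and of 1.004 in batch 2, with a range of 0.422 to 1.70. Igkc counts for each count of a kappa variable segment had a median of 2.25 in batch 1 and 1.21 in batch 2. What differed between the batches is not given in the sources used here.

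The genes fell into sets that varied together across the 24 libraries, which share batches and groups. Igkc and Jchain had a Pearson r of 0.95 and a Spearman rho of 0.92 on log2 CPM. Without the 2 libraries farthest from the median of Igkc r was 0.94. Within batch 1 it was 0.96 and within batch 2 0.95. Cd79a and Cd79b had r = 0.96 and rho = 0.91 (0.93 without the 2 libraries farthest in Cd79a, 0.97 and 0.96 within batches). Ms4a1 and Cd79a had r = 0.92 and rho = 0.87 (0.89 without the 2 farthest in Ms4a1, 0.99 and 0.97 within batches). Pou2af1 followed both sets, with r = 0.85 to Igkc, 0.85 to Mzb1 and 0.81 to Cd79a, and Igkc had r = 0.81 to Mzb1.

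Ighm did not follow the others. Its r was 0.13 with Igkc (rho 0.16) and -0.01 with Cd79a. With Igkc it was -0.19 without the 2 libraries farthest from the median of Ighm, 0.02 within batch 1 and 0.44 within batch 2. With the mean of the 9 genes' standardised levels r was 0.28 for Ighm, the lowest of the 9, then 0.55 for Ighd, 0.64 for Jchain, 0.78 for Igkc, 0.81 for Mzb1 and Cd79b, 0.83 for Ms4a1, 0.86 for Cd79a and 0.94 for Pou2af1. That mean includes the gene itself, which raises each of these values. Of the 36 pairs of genes, 19 had a permutation p under 0.05 for r after Benjamini-Hochberg adjustment over the pairs, and 0 of the 8 pairs with Ighm did. The permutation p was 1e-05 for Igkc with Jchain (adjusted 4e-05), the smallest that 100000 permutations can give, and 0.555 for Igkc with Ighm (adjusted 0.690). Libraries share groups and batches, so they are not independent draws.

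**Figure D2:**
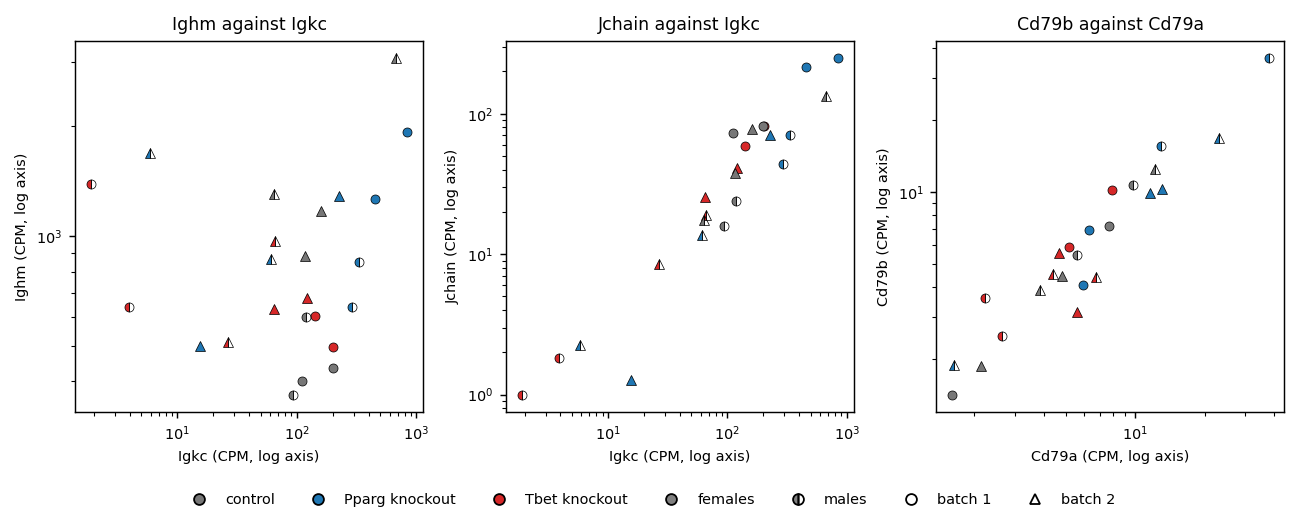
Pairs of genes across the 24 libraries (TMM-scaled CPM on log axes), each point a library, coloured by genotype, filled on one side for males and shaped by batch. Igkc follows Jchain (r = 0.95) and Cd79a follows Cd79b (r = 0.96), while Igkc against Ighm shows no line (r = 0.13).

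The library with the least Igkc shows the gap between Ighm and the other antibody genes. Tbet knockout males replicate 3 held 29367 counts of Ighm, 1388 CPM and the fourth highest of the 24 libraries, with 1.89 CPM of Igkc and 3 counts over all heavy chain variable segments. Every membrane or secreted antibody that uses Ighm also carries a variable segment and a light chain. Pparg knockout males replicate 2 had 1688 CPM of Ighm with 5.86 CPM of Igkc and 95 counts of heavy chain variable segments. Over the 24 libraries there were 0.136 to 46.2 Igkc counts per 100 Ighm counts, with a median of 17.8, and 0.0102 to 18.0 counts of heavy chain variable segments, with a median of 6.22. The lowest of both was Tbet knockout males replicate 3, and the highest were control females replicate 1 for Igkc and control males replicate 4 for the variable segments. Which transcripts gave the Ighm counts of these libraries was not tested.

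Ighm made up 64.1% to 99.5% of the counts of all heavy chain constant genes, with a median of 92.4%. The switched classes, which B cells make after class switching, differed greatly between single libraries. Ighg1 had 16850 counts in all, of which 15789 (93.7%) came from control males replicate 4, and it was at 0 in 8 libraries. Ighe had 959 counts, of which 942 (98.2%) came from the same library, and it was at 0 in 18 libraries. In that library Ighg1 made up 84.5% of the switched heavy chain counts. Igha led in others: in control females replicate 3 it held 6931 counts, 98.7% of the switched counts (exact Clopper-Pearson 95% interval 98.4% to 99.0%). In control males replicate 4 it made up 1.14% of them.

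Igha was the constant gene called between the sexes in Pparg knockouts. Replicates 1 to 4 had 109.9, 67.9, 218 and 17.4 CPM in control females, 162, 7.40, 246 and 57.9 CPM in Pparg knockout females and 149, 15.3, 18.5 and 31.5 CPM in Tbet knockout females. Males had 0.568, 7.19, 72.1 and 8.87 CPM of Igha in controls, 0.265, 3.39, 6.60 and 3.22 CPM in Pparg knockouts and 3.50, 11.6, 1.09 and 6.16 CPM in Tbet knockouts. Pparg knockout males and females did not overlap, as held for 9.06% of all genes. Igha was lower in those males by a log2 fold change of -4.69 (SE 1.25, edgeR adjusted p = 0.0250), the 1 of 11 constant genes called in this comparison, where 8.77% of all genes were. Within batches it was -5.92 (adjusted p = 0.0857) and -3.30 (0.179). The call was lost without any 1 of Pparg knockout females replicates 1 and 3 and males replicates 1 and 3, with an adjusted p of up to 0.0853. In controls Igha had -2.25 and in Tbet knockouts -2.60, and neither passed the adjusted threshold. Over all 6 groups 3 of 11 passed the test, against 25.6% of all genes: Igha (edgeR adjusted p = 0.0238), Ighg1 (0.0194), whose counts came mostly from control males replicate 4, and Iglc2 (0.0373). With each of the 24 libraries left out in turn Ighg1 kept its call, with an adjusted p of 0.0321 without control males replicate 4, but lost it with limma (0.330), with the replicate block (0.115) and in each batch alone (0.0757 and 0.0562). Igha lost it without Pparg knockout males replicate 3 (0.0515) and in each batch alone (0.108 and 0.135), and Iglc2 without any 1 of 12 of the libraries (up to 0.0922), with the block (0.0694), with no filter (0.0576) and in batch 2 alone (0.195).

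Among light chains Igkc held a median of 90.5% of the constant counts. It held 98.0% in control males replicate 4 and 43.6% in control females replicate 3, where Iglc1 had 2258 counts, Iglc2 2166 and Igkc 3512. Iglc2 and Iglc3 share 95.1% of their bases and Ighg2b and Ighg2c 87.6%, so the split of reads between the copies is uncertain.

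**Figure D3:**
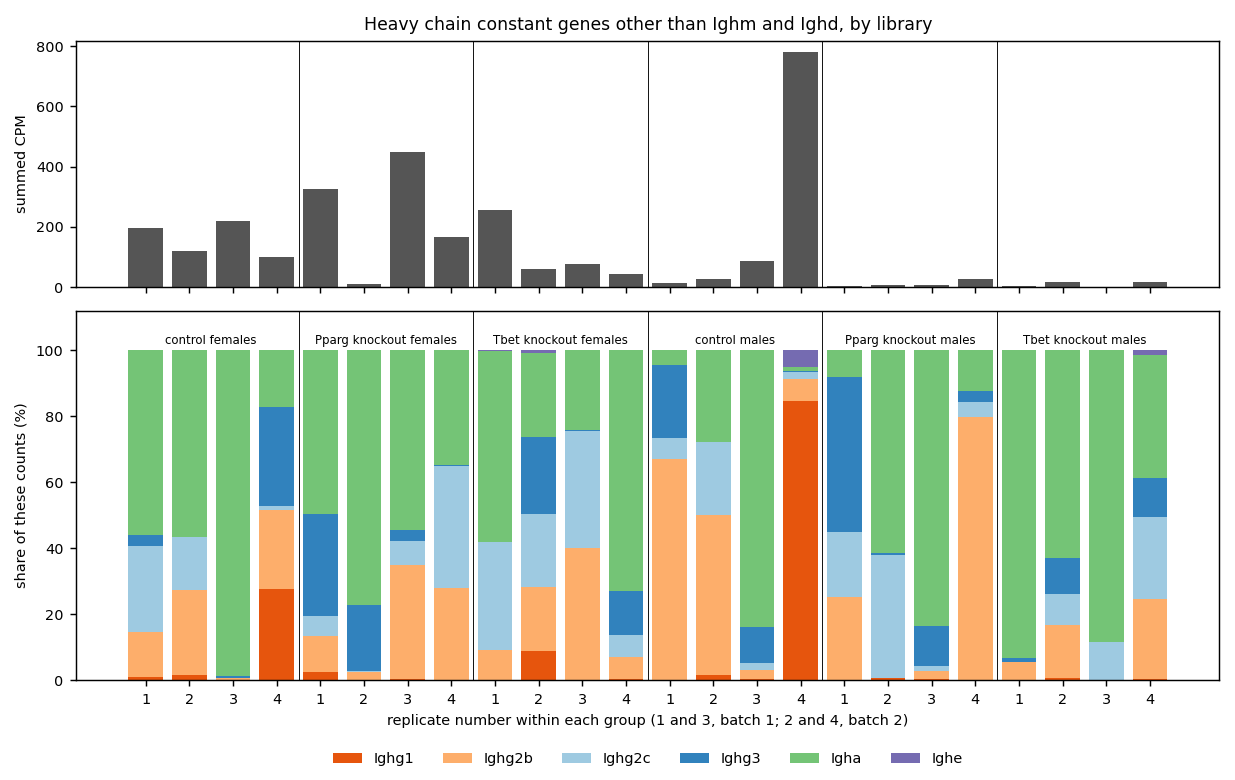
Heavy chain constant genes other than Ighm and Ighd in the 24 libraries, 1 bar per library: their summed level (CPM, top) and the share of their counts held by each gene (percent, bottom). The tallest bar, control males replicate 4 at 779 CPM, is 84.5% Ighg1, and Igha fills 98.7% of that of control females replicate 3.

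Variable segments gave a further view of the same antibodies. The table lists 120 heavy chain, 103 kappa and 3 lambda variable segments. Heavy chain variable segments had 3 to 13307 counts per library, with a median of 898.5, and 17 different segments led in the 24 libraries. In the 21 libraries with at least 100 such counts, the leading segment held 9.14% to 65.7% of them, with a median of 18.6%. In the 22 libraries with at least 100 kappa counts, the leading kappa segment held 8.29% to 44.8%, with a median of 20.6%.

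The heavy chain segment with the highest mean share was Ighv11-2 (chromosome 12, 114048241 to 114048704), a segment known from B-1 cells, which make natural IgM. It led in Pparg knockout males replicate 1 with 658 of 1001 counts (65.7%, exact 95% interval 62.7% to 68.7%) and in replicate 3 of that group with 772 of 1654 (46.7%, 44.2% to 49.1%). It also led in control males replicate 1 (30.8%), Pparg knockout females replicate 2 (30.9%) and Tbet knockout males replicate 2 (16%). Its median share was 26.5% in Pparg knockout males, 11.4% in control males, 9.20% in Pparg knockout females, 5.41% in Tbet knockout males, 1.93% in Tbet knockout females and 0.905% in control females. Some of these libraries held under 100 heavy chain variable counts: without them the median was 46.7% over 3 libraries of Pparg knockout males and 13.4% over 2 of Tbet knockout males, so the order of the groups depends on them. Over all 4 libraries of each group the ranges of all 6 groups overlapped. Without the libraries under 100 counts, Tbet knockout males (10.81% to 15.95%, 2 libraries) lay above control females (0.281% to 2.45%). The other pairs of groups still overlapped, and the shares were not tested between groups. The other leading heavy chain segments by mean share, Ighv1-53, Ighv1-26, Ighv6-6 and Ighv6-3, reached 22.8%, 24%, 31.1% and 25.6% in their highest libraries.

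Single libraries were dominated by other segments. Ighv2-9 held 645 of 1067 heavy chain counts (60.4%) in control females replicate 3, the library with the highest Igha share. Ighv5-6 held 4027 of 13307 (30.3%) and Igkv5-48 4779 of 14293 kappa counts (33.4%) in control males replicate 4, the library that held most Ighg1 and Ighe. Igkv1-117 held 1012 of 2261 (44.8%) in Pparg knockout males replicate 3. The kappa segments with the next highest shares, Igkv5-39, Igkv3-2, Igkv6-20 and Igkv1-135, reached 34.7%, 32.9%, 20.9% and 13.4% in libraries with at least 100 kappa counts. Libraries of 1 group were about as unlike as libraries of different groups: the cosine similarity of their segment shares had a median of 0.346 between libraries of a group with different title numbers, 0.298 between those with the same title number in the other batch and 0.308 between groups.

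**Figure D4:**
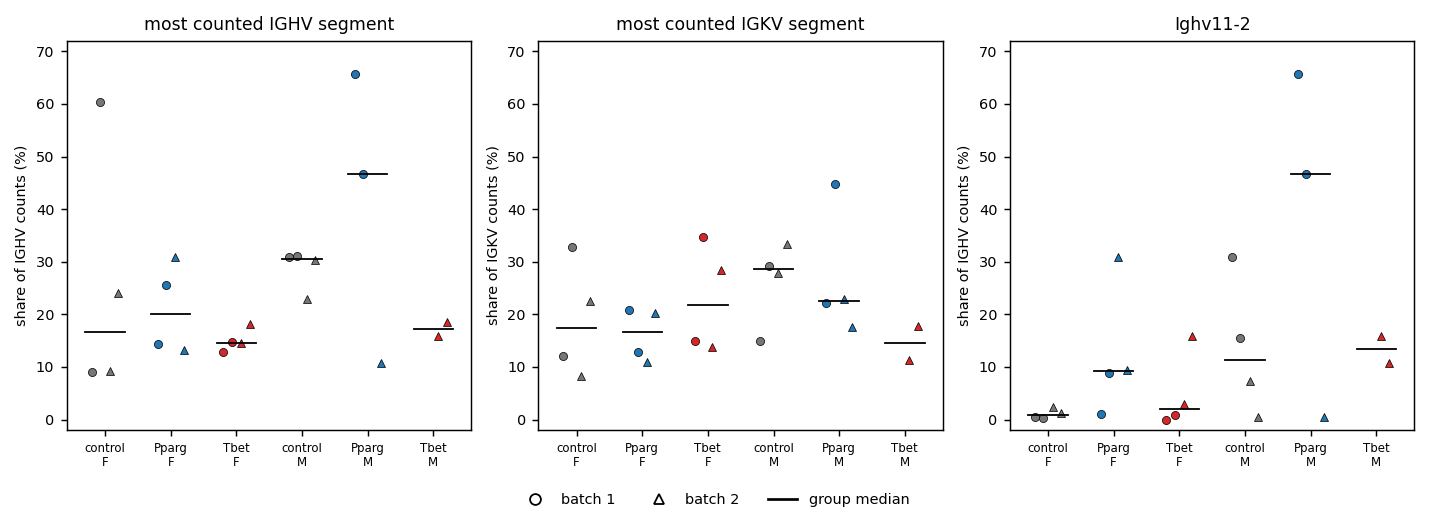
Share (percent) of the most counted heavy chain segment (IGHV, left) and kappa segment (IGKV, middle) of each library, and of Ighv11-2 (right), by group (F, females; M, males) and batch, for libraries with at least 100 counts of that chain; bars are medians of the libraries drawn, so they differ from medians over all 4 libraries. The highest heavy chain shares are 65.7% in Pparg knockout males replicate 1 and 60.4% in control females replicate 3, and Ighv11-2 stays between 0.281% and 2.45% in control females.

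The nearest genes were sought after leaving out the 9 genes themselves, variable, diversity and joining segments of antigen receptors, predicted genes, clones and pseudogenes. Among the remaining genes, those whose levels were most like the mean of the 9 over the 24 libraries included Tnfrsf13c (r = 0.85), Spib (0.83), Fcrl5 (0.81), Cd22 (0.79), Btla (0.78), Pax5 (0.75), Fcrla (0.75), H2-Oa (0.74) and Cxcl13 (0.74). Genes near Ms4a1 included Siglecg (r = 0.93) and Cacna1i (0.91), those near Cd79a Spib (0.93) and Pax5 (0.91), and those near Cd79b Pax5 and Fcmr (both 0.89). Among the genes searched, Igkc, Jchain and Mzb1 had lambda constant genes nearest: Igkc Iglc3 (0.81), Jchain Iglc2 (0.85) and Mzb1 Iglc3 (0.78). Some of the 9 were closer to each other, such as Igkc and Jchain (0.95) and Mzb1 and Pou2af1 (0.85). Mzb1 next had Bhlha15 and Per2 (both 0.76). Ighd had Fcer2a nearest (0.79), H2-DMb2 (0.78) and Btla (0.75), and Pou2af1 had Fcrl5 (0.82), Spib (0.81) and H2-Oa (0.80). Ighm had Odf3l1 (0.70), Trabd2b (0.68) and Rhoq (0.68), and no B cell gene among its 3 nearest of the genes searched.

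Other B cell genes were followed as lists. Of 24 further genes of B cells, 0 were called in either Pparg comparison or either Tbet comparison. Of all genes, 0.0168% and 0% were called in the Pparg comparisons of females and males, and 1.22% and 0.00561% in the Tbet comparisons. Between control males and females 4 of 24 were called, against 27.2% of all genes (13.6% higher and 13.6% lower): Cd180, a toll-like receptor homologue, was higher in males by 1.39 (SE 0.27, edgeR adjusted p = 0.00126) and the tetraspanin Cd37 by 0.96 (SE 0.24, 0.00745). Cd55, which limits complement, was lower in males by a log2 fold change of -0.94 (SE 0.19, 0.00164), and Vpreb3 by -4.59 (SE 1.34, 0.0164). Vpreb3 rests on 1 library: without control females replicate 1 it was -0.35 (adjusted p = 0.764). Which cells of whole fat gave the differences of Cd180, Cd37 and Cd55 was not tested. Macrophage markers summed to 402 to 1159 CPM in control females and 1438 to 2045 CPM in control males.

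Cd180 was also higher in Pparg knockout males than females, by 1.18 (SE 0.27), and Cd55 was lower in males of both knockouts, at -0.67 (SE 0.19) and -0.70 (SE 0.19). In those comparisons 2 of 24 genes each were called, against 8.77% and 9.31% of all genes, and in Tbet knockouts the second was Bach2, a repressor that keeps B cells from becoming plasma cells, at -0.93 (SE 0.29). With each library left out in turn, Cd37 and Cd180 in controls and Cd55 in controls kept their calls in 8 of 8. All 3 lost them in batch 2 alone (adjusted p = 0.141, 0.0514 and 0.0536), and Cd55 without the batch term (0.0546). Cd180 in Pparg knockouts lost its call without Pparg knockout males replicate 1 (adjusted p = 0.0517). Cd55 kept it in 2 of 8 in Pparg knockouts and 4 of 8 in Tbet knockouts, Bach2 in 2 of 8 and S1pr2 in 5 of 8, with adjusted p of up to 0.133, 0.106, 0.184 and 0.0942. Highest single values were 26.3 CPM of Cr2, a complement receptor, and 15.2 CPM of Fcer2a, a low-affinity IgE receptor, both in Pparg knockout males replicate 4. Of 6 germinal centre genes tested, 1 was called between Tbet knockout males and females, against 9.31% of all genes: S1pr2, at -0.81 (SE 0.22). None of the 6 was called by edgeR in the other sex comparisons, against 27.2% and 8.77% of all genes. None was called in a knockout comparison, against 0% to 1.22% of all genes.

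Of 17 genes of B cell receptor signalling, 6 were higher in control males than in control females, and 0 were lower, where 13.6% of all genes were higher and 13.6% lower. They were the kinases Syk (1.09, SE 0.23), Lyn (0.90, SE 0.18) and Btk (1.29, SE 0.28), the exchange factor Vav1 (1.01, SE 0.28), the phosphatase Inpp5d (0.67, SE 0.17) and the inhibitory receptor Fcgr2b (0.96, SE 0.24). In Pparg knockouts 3 of 17 were higher in males, Syk (0.82), Lyn (0.80) and Inpp5d (0.54), against 3.59% of all genes, and in Tbet knockouts 0 of 17, against 3.93%. With each library left out in turn, 5 of the 6 calls in controls held in 8 of 8, and Vav1 was lost without control females replicate 3 or control males replicate 1 (adjusted p of up to 0.0569). Without the batch term Syk, Btk, Vav1 and Inpp5d lost their calls (adjusted p of up to 0.120), and in batch 2 alone Btk, Vav1, Inpp5d and Fcgr2b did (up to 0.401). In Pparg knockouts Lyn held in 8 of 8, Syk in 3 of 8 and Inpp5d in 1 of 8 (up to 0.127 and 0.144). Macrophages express these genes too, and 9 of 10 macrophage markers were higher in control males: their summed level was 402 to 1159 CPM in control females and 1438 to 2045 CPM in control males. The part of macrophages in these differences was not tested. In Tbet knockout females Syk (0.98, SE 0.23, adjusted p = 0.0419) and Btk (1.16, SE 0.28, 0.0486) were above controls, 2 of 17 where 0.583% of all genes were higher. When each of the 8 libraries was left out in turn, Syk kept its call in 1 of 8 and Btk in 0 of 8, with adjusted p of up to 0.145 and 0.148. The macrophage markers summed to 1307 to 1809 CPM in Tbet knockout females.

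Of 18 plasma cell regulators and secretory genes, 2 were called between control males and females, 1 between Pparg knockout males and females and 1 between Tbet knockout males and females, all higher in males, as were 13.6%, 3.59% and 3.93% of all genes. They were Ell2, an elongation factor of antibody secretion (0.90, 0.65 and 0.72 in the 3 genotypes, SE 0.20 each) and Edem1, a factor of protein degradation in the endoplasmic reticulum (0.90, SE 0.19, in controls). Both calls in controls held in 8 of 8 when each library was left out in turn but were lost in batch 2 alone (adjusted p of up to 0.150) and without the batch term (up to 0.127), and Ell2 held in 2 of 8 in each knockout, with adjusted p of up to 0.166 and 0.119. Fat cells and other cells express both. No gene of this list and no innate-like B cell gene was called in a knockout comparison, against 0% to 1.22% of all genes.

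Ligands that keep B cells alive or draw them in were followed with their receptors as a list of 16 genes. Tnfsf13b, which encodes the survival factor BAFF, was at 5.05, 10.3, 7.46 and 10.9 CPM in control females, 9.37, 9.62, 8.27 and 16 CPM in Pparg knockout females and 8.55, 14.1, 11.9 and 16.4 CPM in Tbet knockout females. Males had 3.88, 4.52, 3.93 and 3.75 CPM of Tnfsf13b in controls, 4.39, 5.11, 5.76 and 4.98 CPM in Pparg knockouts and 5.28, 3.09, 3.92 and 3.83 CPM in Tbet knockouts. In each genotype every male library lay below every female library, and groups did not overlap for 15.7%, 9.06% and 12.4% of all genes in controls, Pparg knockouts and Tbet knockouts. The log2 fold change of males against females was -1.04 (SE 0.24, edgeR adjusted p = 0.00387) in controls, -1.07 (SE 0.24, 0.00911) in Pparg knockouts and -1.61 (SE 0.24, 0.00045) in Tbet knockouts. All 3 calls held when each library was left out in turn. Within batch 1 the values were -0.72, -0.83 and -1.18 and none was called. With limma on log2 FPKM the calls in controls (adjusted p = 0.0550) and Pparg knockouts (0.0683) were lost, and in batch 2 alone that in Pparg knockouts (0.0748).

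The other ligands that were called were also lower in males. Il33, an alarmin, was lower in males of all 3 genotypes, at -0.75, -0.82 and -0.93 (SE 0.24 each). Cxcl12, a chemokine that holds plasma cells in place, was lower in Pparg knockout males (-0.93, SE 0.24, edgeR adjusted p = 0.0187) and Tbet knockout males (-1.10, SE 0.24, 0.00651). In controls Cxcl12 was not called, and its ranges overlapped, at 242 to 618 CPM in females and 242 to 317 CPM in males. Tnfsf13, which encodes the related factor APRIL, was lower in control males (-0.76, SE 0.24) and Tbet knockout males (-0.80, SE 0.24). Of the receptors, Ltbr was higher in males of controls (0.59, SE 0.12) and Tbet knockouts (0.44, SE 0.12), and Cxcr4, the receptor of Cxcl12, in Tbet knockout males (1.26, SE 0.25). With each library left out in turn, Cxcl12 and Cxcr4 in Tbet knockouts and Ltbr in controls held in 8 of 8. Cxcl12 there lost its call in batch 1 alone (adjusted p = 0.196), Cxcr4 without the batch term (0.110) and Ltbr in batch 2 alone (0.146). The call of Il33 held in 4, 1 and 5 of 8 in the 3 genotypes, that of Cxcl12 in Pparg knockouts in 5 of 8, that of Tnfsf13 in 4 and 2 of 8 and that of Ltbr in Tbet knockouts in 2 of 8, with adjusted p of up to 0.132. In all, 4 of 16 genes were called in controls, 3 of 16 in Pparg knockouts and 6 of 16 in Tbet knockouts, against 27.2%, 8.77% and 9.31% of all genes. Those lower in males were 3, 3 and 4 of 16, against 13.6%, 5.18% and 5.38% of all genes. No gene of the list was called in a knockout comparison, against 0% to 1.22% of all genes. Cxcl13, which draws B cells into follicles, reached 83.8 CPM in Pparg knockout males replicate 3, the library with the most Cd79a.

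**Figure D5:**
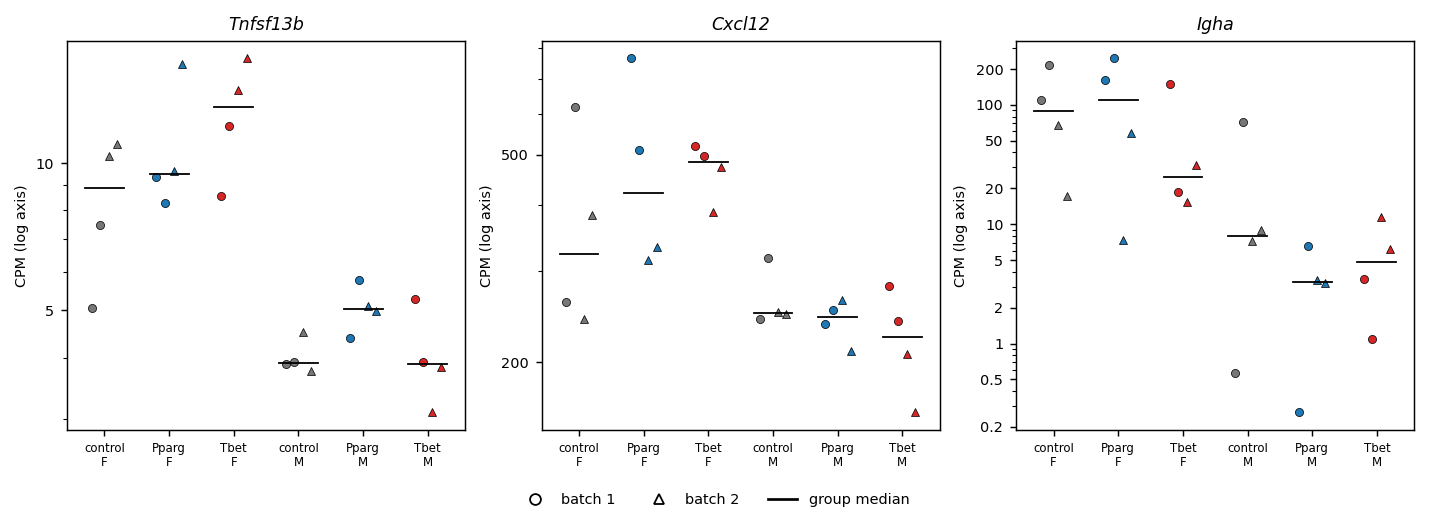
Levels of Tnfsf13b, Cxcl12 and Igha (TMM-scaled CPM, log axis) in each library of the 6 groups (F, females; M, males), points marked by batch and bars at group medians. Tnfsf13b in males, 3.09 to 5.76 CPM, lies below the female libraries of the same genotype.

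Markers of other cells were summed in the same libraries. T cell markers summed to 35.6 to 66.8 CPM in libraries of control females, 56.9 to 124 CPM in those of Pparg knockout males and 36.8 to 90.8 CPM in Tbet knockout males. Lymph node stroma markers, among them genes of lymphatic vessels and follicles, summed to 44.9 to 147 CPM in libraries of control females, 97.5 to 188 CPM in those of Pparg knockout males and 51.9 to 119 CPM in Tbet knockout males. These ranges overlap, but of these groups Pparg knockout males had the highest median of both sums. In the same order of groups the medians were 54.5, 90.0 and 51.2 CPM for T cell markers. For lymph node stroma markers they were 99.8, 149 and 96.6 CPM. Of 19 T cell markers and 9 lymph node stroma markers tested, 0 were called in a comparison of knockout with control, against 0% to 1.22% of all genes. Glycam1, which marks the high endothelial venules of lymph nodes, had 0 counts in 13 of 24 libraries. The part of these cells in the levels above was not tested.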

How the data were processed

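RNA of whole visceral fat was extracted with a kit for lipid tissue and sequenced with a TruSeq RNA kit, per the labels' protocols. The authors deposited raw counts of reads per gene, made with featureCounts on GRCm38 (mm10) per the submitters' processing notes, and log2 FPKM values per library; no source used here gives the aligner, versions, strand setting or any scaling of the FPKM. Counts held 27179 genes, of which 1029 without a symbol held 0.433% of counts. The deposited log2 FPKM values covered 15764 genes, and the maxima of the 24 libraries took only 9 different values. They served 1 alternative and the levels compared between genes.

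Counts were fitted in R 4.3.3 with edgeR 4.0.16 (filterByExpr by group, 17824 genes tested; TMM; robust quasi-likelihood F test). The model took in the 24 libraries at once, with group (6 levels) and batch by title as terms and 17 residual degrees of freedom. There were 10 comparisons: 4 of knockout with control, 3 of males with females, 2 differences of effects between the sexes, and 1 over the 6 groups. The batch term was read as a further comparison, a choice made after seeing the data. A call is a Benjamini-Hochberg adjusted p under 0.05, adjusted over every gene tested. The 2 knockouts were compared with the same controls. Log2 CPM used a prior count of 2. The common coefficient of biological variation was 0.404. Totals ran from 8345575 to 31022845 counts, and exact binomial intervals cover counting error only, since reads are not independent molecules. The scripts were tested on simulated data.

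The alternatives were RLE and upper quartile scaling, DESeq2 1.42.0, limma 3.58.1 on log2 FPKM, no filter, no batch term, batch from the source names, a replicate block, each batch alone and each library left out. No 2 libraries held identical counts (0 identical pairs). The members and lists were chosen with earlier results of these data known. The lists are other B cell, receptor signalling, germinal centre, plasma cell, immunoglobulin constant, innate-like B cell, ligand and receptor genes, and markers of T cells, regulatory T cells, lymph node stroma, plasmacytoid dendritic cells, macrophages, epithelium, adipocytes and blood. Named genes are the 9 members, all immunoglobulin constant genes, called members of the other lists with up to 4 more of high level, the 10 genes nearest the members' mean and 3 nearest each member, and the 5 variable segments of highest mean share per chain; 1 gene among the nearest is not reported here. Ighv2-9, Ighv5-6 and Igkv5-48, where named, were chosen after their values were seen. Promoters were read from a RefSeq table on GRCm38.p6.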

Additional observations from a re-analysis of the deposited data

Results flagged for a closer look

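Of 54 sets of 4 libraries tested (9 genes in 6 groups), 3 held a library whose gap to the nearest other was a larger share of the range than Dixon's 95% critical value for sets of 4. Chance alone flags about 1 in 20 such sets. Ighd in control females was lowest in replicate 1, at 2.96 CPM against 3.61 to 3.71 CPM in the other libraries. Jchain in control females was lowest in replicate 2, at 38.1 CPM against 72.8 to 82.0 CPM. Mzb1 in Pparg knockout males was lowest in replicate 2, at 0.167 CPM (4 counts) against 5.07 to 7.09 CPM, and the same library was lowest of its group for Ms4a1, Cd79a, Cd79b, Ighd, Igkc, Jchain and Pou2af1.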

How the results depend on the processing

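None of the 10 comparisons called a gene of the 9 under RLE scaling, upper quartile scaling, limma on log2 FPKM, no filter, no batch term or batch 2 alone. Over the 6 groups the count of called genes was 4 with DESeq2, 2 with batch from the source names, 4 in batch 1 alone and 0 to 4 with a library left out. In batch 1 alone it was 2 for Tbet knockout males, 1 for control males against females, 2 for Pparg knockout males against females, 2 for Tbet knockout males against females and 2 for the difference of the Tbet effect. Pparg knockout males against females gave 0 to 1 with a library left out. Of all genes, the 6 groups called 6787 with DESeq2 and 2120 without the batch term. With the replicate block 0 of the 9 were called in all 10 comparisons (smallest adjusted p 0.0632). Replicate numbers did not pair libraries: deviations of same-numbered libraries correlated from -0.636 to 0.586, with a median of -0.0920, and 13 of 60 pairs were over 0.1. Pairs of the same batch with other numbers had a median of -0.112, with 12 of 60 over 0.1. Each library was set against other groups of its own batch, which hold only numbers 1 and 3 or 2 and 4. Of 24 libraries, 12 correlated best with their own number. Of log2 fold changes of the 9 genes, 807 kept sign and side of the threshold under an alternative, 49 changed sign and 8 became calls. Of 38 calls of other genes of the B cell lists, 32 were lost in batch 2 alone, 17 in batch 1 alone, 26 without the batch term, 8 with batch from the source names, 6 with no filter, 3 with the replicate block, 2 with RLE scaling, 1 with upper quartile scaling and 0 with DESeq2, and 4 of 37 with limma.

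Signs changed as follows, and the cause was not tested. In Pparg knockout females batch 1 alone put Ighd at -0.17, and batch 2 alone gave Ighm -0.19, Igkc -0.18, Jchain -0.68 and Mzb1 -0.11. Jchain was -0.49 with limma, and Mzb1 -0.29 to 0.95 with a library left out. In Pparg knockout males batch 1 alone gave Ighm 0.64, Igkc 1.58, Jchain 1.52 and Mzb1 1.496. Leaving out a library gave Ighm -0.62 to 0.40, Igkc -1.16 to 0.77, Jchain -1.44 to 0.58, Mzb1 -0.85 to 1.16 and Pou2af1 -0.37 to 1.07, with Pou2af1 at -0.028 with limma and -0.95 in batch 2. In Tbet knockout females batch 1 gave Ighm 0.41 and Igkc 0.16, and batch 2 Mzb1 0.094. Leaving out a library gave Ighm -0.32 to 0.051, Igkc -0.41 to 0.031 and Pou2af1 -0.26 to 0.49. Pou2af1 was 0.072 with limma, 0.0041 with no filter, 0.17 with the source name batch and 0.0052 in batch 2. In Tbet knockout males batch 1 gave Ighm 1.08 and Ighd 0.31, and leaving out a library Ighm -0.83 to 0.27. In control males against females Igkc was -0.10 with limma, -0.59 in batch 1 and -0.89 to 1.17 with a library left out, Jchain 0.37 in batch 2 and -1.95 to 0.075 with a library left out, and Vpreb3 0.22 in batch 2. In batch 2 Ms4a1 was -0.17 for Pparg knockout males against females and 0.13 for Tbet knockouts. There Ighd was -0.034 with the block, -0.054 in batch 2 and -0.19 to 0.24 with a library left out.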
